A study of Rattus norvegicus with 11 samples.

Results

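Principal cells are the water- and sodium-reabsorbing cells of the kidney collecting duct. In a droplet single-cell RNA sequencing study of ZSF1 rat kidneys they were taken as every cell that the authors named PC, which gave 1260 of 114615 cells (1.10%), the 17th largest of 21 named types. There were 3 obese rats that received enalapril in the drinking water, 4 obese rats that received the vehicle, and 4 lean rats. All were male, were 12 weeks old on arrival and carry the same genotype entry, ZSF1-LeprfaLeprcp/Crl, in the labels, where lean or obese is given as the phenotype. The untreated obese rats drank the vehicle by the treatment protocol and carry the treatment entry none, as do the lean rats. The labels do not state the dose or the length of treatment. Obese ZSF1 rats lack a working leptin receptor throughout the body and develop diabetic kidney disease, so effects on the kidney itself and effects through the rest of the body cannot be told apart. Each library was taken as 1 animal. The sample codes of 10 of the 11 libraries share a prefix with 1 other library of the same group, and the labels do not explain it, so what the prefix marks and the group cannot be told apart.

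The collecting duct is built from principal cells and intercalated cells. Under vasopressin, principal cells insert the water channel aquaporin-2 (gene Aqp2) into their luminal membrane. Under aldosterone they take up sodium through the epithelial sodium channel and secrete potassium, and Fxyd4 encodes a small regulator of their sodium pump. Intercalated cells secrete acid (type A) or bicarbonate (type B). The connecting tubule (CNT) joins the distal convoluted tubule (DCT) to the duct and already holds cells with principal-like transport. Enalapril blocks the angiotensin-converting enzyme and thereby lowers the formation of angiotensin II and the release of aldosterone, the hormone that acts on principal cells.

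The table used here lists cells with their type, UMIs (counted transcript molecules), detected genes, mitochondrial share, cell cycle scores and map position, and holds no gene values. Aqp2 and Fxyd4, the 2 markers set for the type, were therefore not measured here, and the name PC could not be checked against them. Sequences of these genes are not shown for the same reason. The 11 libraries held 4232 to 18427 cells and 56 to 191 principal cells. In 6 of 11 the listed cells outnumber the 10000 that the protocol says were loaded, so what a listed cell is could not be settled here. Lean rat 2 stood apart, with a median of 466 UMIs per principal cell against 1743 to 4977 in the other animals, and enalapril-treated rat 1 was the next shallowest at 1743. Of the 1260 principal cells, 36 (2.86%) had a cell barcode that also occurred in another library, against 2.86% of all cells, and 0 of them had the same UMI and gene numbers as the other cell.

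No difference in the share of principal cells among all kidney cells was detectable between the groups. They made up 1.06%, 1.60% and 1.27% of all cells in enalapril-treated obese rats 1 to 3, 1.13%, 1.09%, 1.44% and 0.347% in obese rats 1 to 4, and 1.44%, 1.44%, 1.03% and 0.866% in lean rats 1 to 4. The groups overlapped. Obese rat 4 was the lowest of all, and its exact 95% Clopper-Pearson interval (0.268% to 0.443%) lay below that of every other animal. Such intervals cover counting error only.

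Averaged over animals, the share was 1.31% ± 0.269 with enalapril (SD, n = 3), 1.00% ± 0.464 among untreated obese animals (SD, n = 4) and 1.19% ± 0.294 among lean animals (SD, n = 4). Cells per type were compared by edgeR's quasi-likelihood test against the animal's total cell number, with Benjamini-Hochberg adjustment over 20 types, at a threshold of 0.05. For obese against lean rats the log2 fold change was -0.26 (95% interval -1.14 to 0.63, adjusted p = 0.583). For enalapril-treated against obese rats it was 0.39 (-0.56 to 1.34, adjusted p = 0.646), and for enalapril-treated against lean rats 0.13 (-0.82 to 1.09, adjusted p = 0.858). These intervals are wide, so an equal share is not shown. Without obese rat 4 the difference of obese from lean rats was 0.035 (adjusted p = 0.919), and without enalapril-treated rat 2 that of treated from lean rats was -0.035 (adjusted p = 0.949). With non-immune cells alone as the total, the obese and lean difference was 0.14 (adjusted p = 0.856). The treated and obese difference was 0.099 without obese rat 4, 0.22 without treated rat 2, 0.62 without obese rat 3 and 0.063 with non-immune cells as the total, with edgeR adjusted p of 0.411 or more in each.

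**Figure D1:**
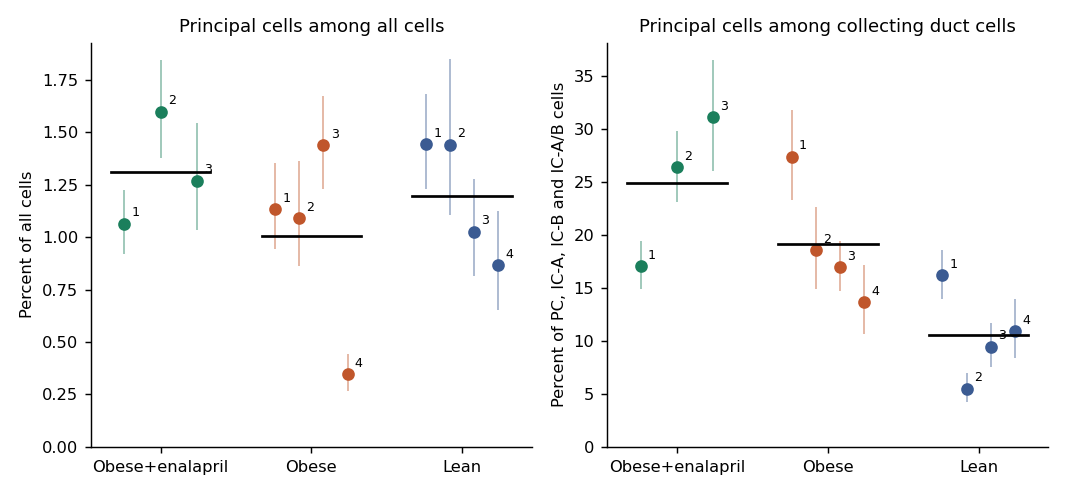
Principal cells as a percent of all cells (left) and of the collecting duct cells PC, IC-A, IC-B and IC-A/B (right), 1 point per animal with its replicate number, exact 95% Clopper-Pearson intervals and the group mean as a black line. The groups overlap on the left, while on the right all 3 enalapril-treated animals (17.1% to 31.1%) lie above all lean animals (5.50% to 16.2%).

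Neighbouring types were called where principal cells were not. Between obese and lean rats, edgeR called 12 of 20 types (60.0%), 6 of them higher and 6 lower. Among the 6 lower types were DCT, DCT/CNT and the 3 intercalated types IC-A, IC-B and IC-A/B, with log2 fold changes from -2.07 (DCT) to -1.18 (IC-A/B). Monocytes, T cells and B cells were among the 6 higher types, so a lower share of all cells does not by itself show fewer cells. With non-immune cells alone as the total, edgeR called 3 of 15 types. Without lean rat 2, 7 of the 20 types were called. Principal cells ranked 11th from the lowest fold change and were not called. Between enalapril-treated and lean rats 3 of 20 types were called (15.0%), with DCT (-1.73, adjusted p = 0.0100) and IC-A/B (-2.24, adjusted p = 0.00938) lower. Between enalapril-treated and obese rats edgeR called 0 of 20 (0%), with 2 at an unadjusted p under 0.05. DESeq2 called 1 there and limma called 0. The exact permutation test also called 0, but its smallest p with 3 against 4 animals is 0.0286. That leaves it little room to call any of 20 types after adjustment, so its 0 is not read as a result. That one type was called and another was not does not show that they differ, so the makeup of the duct was tested next.

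**Figure D2:**
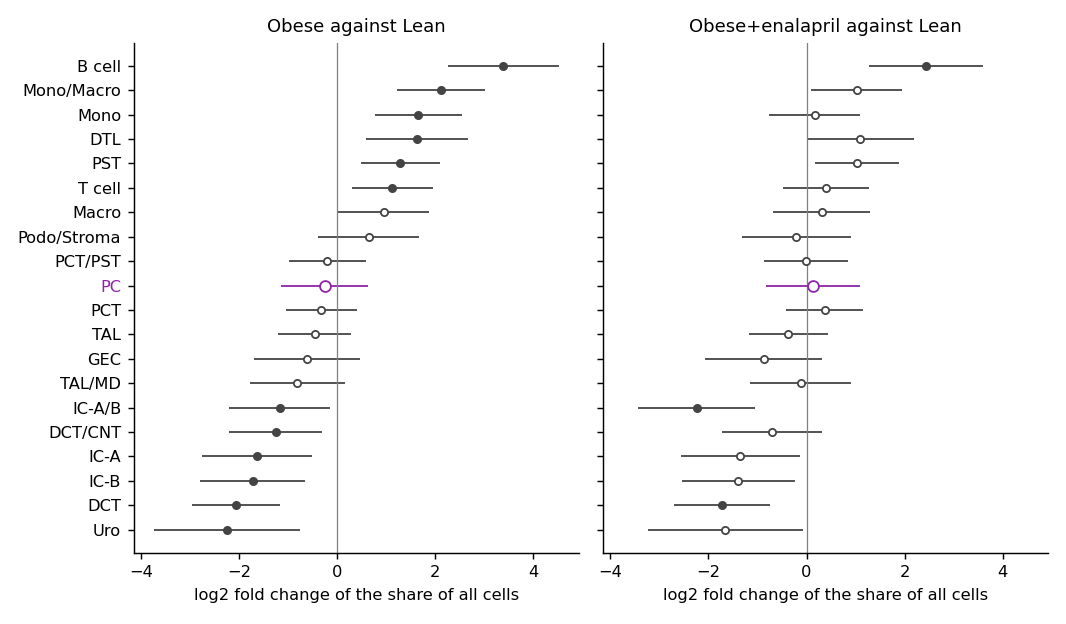
Log2 fold change of the share of all cells for 20 cell types, in obese against lean rats (left) and enalapril-treated obese against lean rats (right), with 95% intervals from edgeR; filled points have an adjusted p under 0.05 and principal cells are in purple. Principal cells lie near 0 in both panels (-0.26 and 0.13), above the DCT and intercalated types.

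Within the collecting duct, principal cells made up a larger share in enalapril-treated than in lean rats by edgeR, DESeq2 and limma. The edgeR call rested on single animals, and the exact permutation test, which these group sizes limit, did not make it. The difference of untreated obese from lean rats missed the threshold in edgeR and passed it in DESeq2 and limma. No test separated the 2 obese groups. They made up 17.1%, 26.4% and 31.1% of the duct cells in enalapril-treated rats 1 to 3, 27.4%, 18.6%, 17.0% and 13.7% in obese rats 1 to 4, and 16.2%, 5.50%, 9.47% and 10.96% in lean rats 1 to 4. All 3 treated and 3 of 4 untreated obese animals exceeded the highest lean value, and obese rat 4 fell inside the lean range. The means were 24.9% ± 7.14 with enalapril (SD, n = 3), 19.1% ± 5.86 among untreated obese animals (SD, n = 4) and 10.5% ± 4.42 among lean animals (SD, n = 4). A change in the tissue and a change in how many cells of a type survive dissociation cannot be told apart in these shares.

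With the duct cells of the animal as the total, the share of principal cells was higher in enalapril-treated than in lean rats. The log2 fold change was 1.23 ± 0.36 (SE, edgeR, adjusted p = 0.0478 over 17 types, each within its own compartment). As a share of all cells that difference was 0.13 (edgeR, adjusted p = 0.858), and that of IC-A/B was -2.24 (adjusted p = 0.00938). Within compartments 5 of 17 types were called in this comparison (29.4%), among them IC-A/B in the opposite direction (-0.92, adjusted p = 0.0478). The shares of the duct types add up to the whole, so the calls of principal cells and IC-A/B are not independent results. Leaving out 1 animal gave 0 to 6 called types, with 0 in 6 of 11 such fits. The obese and lean difference of principal cells was 0.86 ± 0.34 and missed the threshold (adjusted p = 0.0754), where 4 of 17 types were called (23.5%; 2 to 7 without 1 animal). Limma (1.06 log2 odds, adjusted p = 0.0473) and DESeq2 (0.86, adjusted p = 0.0343) placed it past the threshold, as did edgeR without lean rat 1 (1.16, adjusted p = 0.0262). Enalapril-treated and obese rats differed by 0.36 ± 0.36 (adjusted p = 0.480), and 1 of 17 types was called (5.88%; 0 to 2 without 1 animal). That difference was 0.18 without treated rat 3, 0.23 without obese rat 4, 0.58 without obese rat 1 and 0.59 without treated rat 1.

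By edgeR the treated and lean call sat at the edge of the threshold. It was lost without enalapril-treated rat 2 (1.17, adjusted p = 0.103) or rat 3 (1.04, adjusted p = 0.143), obese rat 2 (1.23, adjusted p = 0.0589) or rat 3 (1.23, adjusted p = 0.0697), and lean rat 3 (1.18, adjusted p = 0.0815) or rat 4 (1.24, adjusted p = 0.0751), each by edgeR. DESeq2 (1.23, adjusted p = 0.0094) and limma (1.55 log2 odds, adjusted p = 0.0395) called the difference. The exact permutation test of logit shares did not call it (1.55, adjusted p = 0.108), and group size limits that test. EdgeR with the replicate number as a block did not call it either (1.26, adjusted p = 0.101). The edgeR call held without the shallow lean rat 2 (1.00, adjusted p = 0.0376) and without both shallow libraries (1.22, adjusted p = 0.0202). It also held with a floor of 1000 UMIs per cell (0.94, adjusted p = 0.0216), where lean rat 2 kept 2 principal cells. At that floor it held without lean rat 2 too (0.98, adjusted p = 0.0293). Below 20% mitochondrial UMIs it held as well (1.62, adjusted p = 0.0440). That filter left no IC-B cells in treated rat 3 and took out 57.6% of its principal cells. Both filters remove cells unequally from the duct types, so they change the total that the share is taken of.

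The ratio of principal cells to each neighbouring type was then taken within each animal. For each type A intercalated cell there were 0.586, 0.693 and 0.811 principal cells in enalapril-treated rats, 0.831, 0.575, 0.593 and 0.646 in obese rats, and 0.624, 0.136, 0.246 and 0.368 in lean rats. Lean rat 1 reached into the range of both obese groups and the other 3 lean rats lay below it. For each type B intercalated cell the numbers were 0.418, 1.17 and 1.74 in enalapril-treated rats, 1.11, 0.865, 0.680 and 0.660 in obese rats, and 0.451, 0.198, 0.297 and 0.359 in lean rats. All obese animals lay above all lean animals here, and enalapril-treated rat 1 fell inside the lean range.

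The type named IC-A/B gave a wide spread. Per IC-A/B cell there were 1.34, 2.03 and 2.48 principal cells in enalapril-treated rats, 1.84, 0.670, 0.576 and 0.308 in obese rats, and 0.735, 0.209, 0.470 and 0.381 in lean rats. Principal cells thus outnumbered this type in all 3 treated animals, in obese rat 1 and in no lean animal. IC-A/B cells are shallow, with a median of 416 to 1299 UMIs over the 11 animals, against 466 to 4977 for principal cells.

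Against the tubule upstream, the ratio to the joint DCT/CNT type was 0.565, 0.572 and 0.503 in enalapril-treated rats, 0.594, 0.720, 0.626 and 0.421 in obese rats, and 0.555, 0.190, 0.317 and 0.381 in lean rats. Lean rat 1 lay inside the range of both obese groups. The ratio to DCT, a type picked after its values were seen, did not overlap between lean rats and either obese group. There were 0.893, 0.839 and 0.728 principal cells per DCT cell in enalapril-treated rats, 0.904, 0.658, 0.851 and 0.688 in obese rats, and 0.255, 0.245, 0.294 and 0.136 in lean rats. On the mean log2 scale this was 3.65-fold higher in enalapril-treated than in lean rats and 3.44-fold higher in obese than in lean rats. Lean DCT cells also carried little mitochondrial RNA (median per animal up to 4.75%), against 6.50% to 28.4% in treated and 25.8% to 33.9% in obese animals, and the part of this in the ratio was not tested. 

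By exact two-sided permutation tests of the log2 ratios per animal, 15 ratios and contrasts were tested together. The exact permutation p was 0.0286 for obese against lean rats with type B cells and DCT, and for treated against lean rats with IC-A/B and DCT. That is the smallest p that 4 against 4 or 3 against 4 animals allow, and each had an adjusted p of 0.107 by exact permutation, so none of the 15 passed. The ratios were added after the values were seen, and DCT, which counts among the 15, was picked in that way. Its p is therefore a description of the lack of overlap and no support for it. The ratio to all intercalated cells together restates the share of the duct given above and is no further result. It was 2.94-fold higher in enalapril-treated than in lean rats (exact permutation p = 0.0571, adjusted p = 0.0857 over 3 contrasts). In obese against lean rats it was 2.09-fold higher (exact permutation p = 0.0571, adjusted p = 0.0857).

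**Figure D3:**
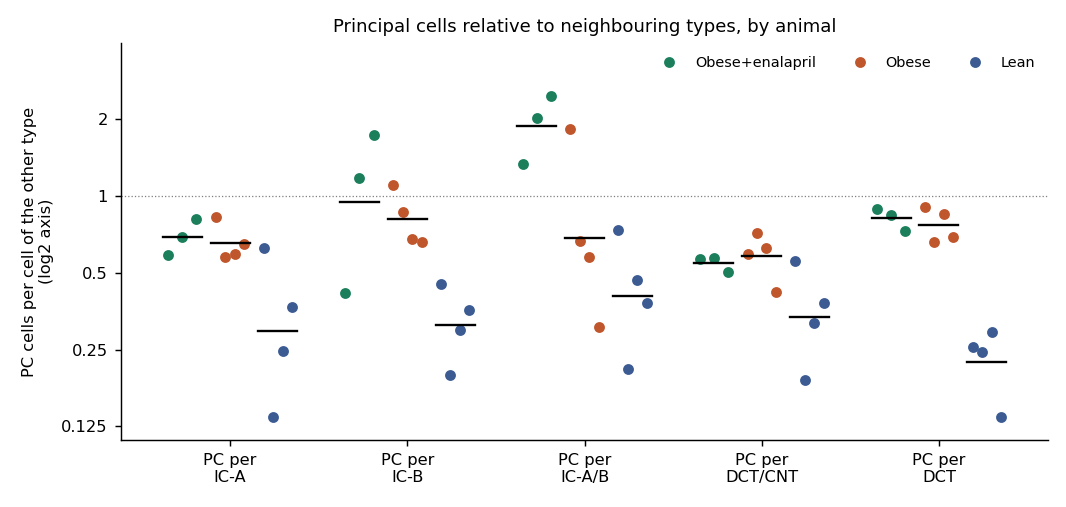
Number of principal cells per cell of 5 neighbouring types on a log2 axis, 1 point per animal, with the geometric mean of each group as a black line and a dotted line at equal numbers. For DCT, a type picked after its values were seen, lean animals lie lowest with no overlap (0.136 to 0.294, against 0.658 to 0.904 in obese and 0.728 to 0.893 in treated rats). For IC-A/B all treated animals (1.34 to 2.48) lie above all lean animals (0.209 to 0.735), and obese rat 1 (1.84) lies inside the treated range.

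Principal cells yielded more RNA molecules than the average kidney cell in every animal. The median UMIs per principal cell were 1743, 3662 and 4069 in enalapril-treated rats 1 to 3, 3845, 3517, 4977 and 3315 in obese rats 1 to 4, and 2053, 466, 3115 and 3723 in lean rats 1 to 4. All other cells of the same animals had medians of 1125, 2728 and 2478 in enalapril-treated rats, 1929, 2046, 3074 and 2520 in obese rats, and 1409, 405, 2226 and 2053 in lean rats. Principal cells were thus higher in 11 of 11 animals, 1.53-fold on the mean log2 scale, with a range from 1.15-fold in lean rat 2 to 1.99-fold in obese rat 1. The authors' names rest on the same gene values as the UMIs, so the difference from other cells is given as a description, with no test.

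Detected genes followed the UMIs. Their median per principal cell was 780, 1348 and 1429 in enalapril-treated rats, 1505, 1333, 1823 and 1107 in obese rats, and 882, 272, 1049 and 1341 in lean rats. This was 1.37-fold above the other cells and higher in 11 of 11 animals. The deposited cells stop at 2971 genes and the richest principal cell had 2935, and 90 principal cells (7.14%) had over 2500.

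Between groups neither measure passed limma's test. Median UMIs of principal cells in obese against lean rats differed by a log2 fold change of 1.08 ± 0.60 (SE, adjusted p = 0.297), while the median over all 18 types tested was 0.80. Without lean rat 2 the difference was 0.43. Limma called 0 of 18 types (0%) in each of the 3 contrasts for UMIs and for genes, with at most 2 at an unadjusted p under 0.05. To take out the depth of the library, the median was divided by that of the other cells of the animal. That ratio was 1.55, 1.34 and 1.64 in enalapril-treated rats, 1.99, 1.72, 1.62 and 1.32 in obese rats, and 1.46, 1.15, 1.40 and 1.81 in lean rats, so the groups overlapped. In limma the obese and lean difference was 0.19 ± 0.16 (adjusted p = 0.446, 3 of 18 types called, 16.7%). The treated and obese difference was -0.13 ± 0.18 (adjusted p = 0.976, 5 of 18 called, 27.8%), and the treated and lean difference 0.07 ± 0.18 (adjusted p = 0.847, 1 of 18 called, 5.56%). Single animals moved these values. Obese against lean was 0.088 without lean rat 2, 0.10 without obese rat 1, 0.30 without obese rat 4 and 0.31 without lean rat 4, and treated against obese lay between -0.23 (without obese rat 4) and -0.034 (without obese rat 1).

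At like depth the gene numbers of principal cells came close together. Among principal cells with 2000 to 4000 UMIs the median was 1046, 1068 and 1085 genes in enalapril-treated rats, 1202, 1208, 1082 and 1059 in obese rats, and 1101, 1049 and 1071 in lean rats 1, 3 and 4, from 15 to 62 cells per animal. Lean rat 2 had 0 cells in this window. Obese rats 1 and 2 were the highest, and the other 8 animals lay between 1046 and 1101.

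Mitochondrial transcripts made up a larger share in principal cells than in other cells of most animals. The median mitochondrial percent per principal cell was 4.31%, 14.5% and 22.5% in enalapril-treated rats 1 to 3, 19.0%, 24.0%, 16.1% and 19.3% in obese rats 1 to 4, and 17.0%, 3.20%, 22.9% and 16.2% in lean rats 1 to 4. The 2 shallow libraries, treated rat 1 and lean rat 2, were the lowest of all. Relative to all other cells of the animal the median was 5.69 percentage points higher, in 10 of 11 animals, the exception being treated rat 1 with 4.31% against 4.56%.

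**Figure D4:**
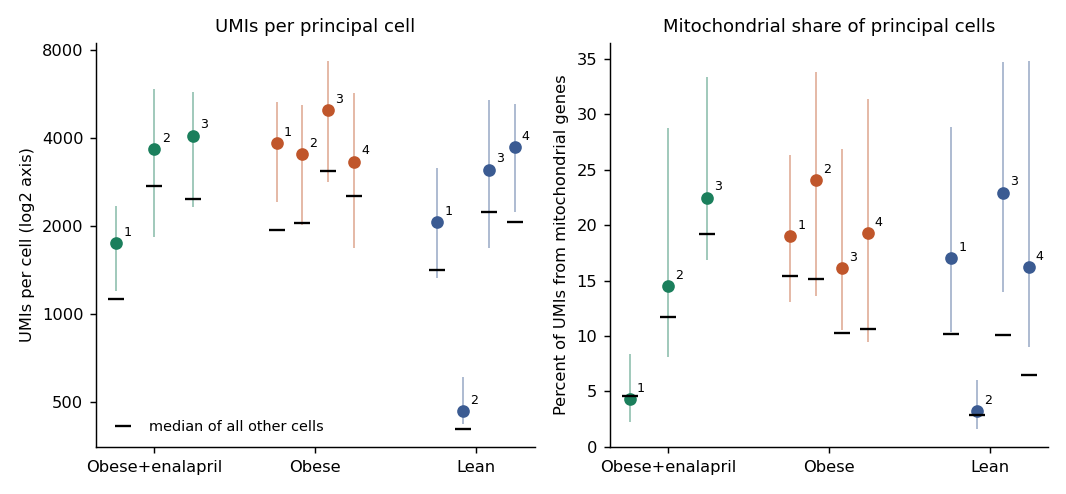
Median UMIs per principal cell on a log2 axis (left) and median mitochondrial percent (right), 1 point per animal with its replicate number; vertical lines span the middle 50% of the animal's principal cells and black dashes are the median of all its other cells. Every animal's principal cells lie above the dash for UMIs, and treated rat 1 and lean rat 2 are lowest on both axes.

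The groups overlapped in the mitochondrial percent. Obese and lean rats differed by 4.76 ± 4.59 percentage points (SE, limma, adjusted p = 0.433), against a median of 4.33 over the 18 types tested, of which 1 was called (5.56%). Treated and obese rats differed by -5.84 ± 4.96 (adjusted p = 0.677, 0 of 18 called, 0%, 1 at an unadjusted p under 0.05), and treated and lean rats by -1.08 ± 4.96 (adjusted p = 0.880, 1 of 18 called, 5.56%). These differences shrank to -1.11 and -0.23 without the 2 shallow libraries, and that of obese from lean rats to 0.88. They were larger without other animals, at -10.2 for treated against obese rats without treated rat 3 and 7.46 for obese against lean rats without lean rat 3. Treated against lean rats ranged from -5.44 without treated rat 3 to 3.65 without treated rat 1.

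Principal cells of 1 animal spread widely in their mitochondrial percent, except that treated rat 3 had none under 7.02% and that few cells of treated rat 1 and lean rat 2 reached 20%. Cells at 20% or more made up 3.66%, 38.8% and 57.6% of the principal cells in enalapril-treated rats, 43.1%, 59.7%, 40.4% and 48.4% in obese rats, and 41.6%, 3.28%, 62.0% and 42.9% in lean rats. Cells under 10% made up 82.2%, 33.3% and 6.06% in enalapril-treated rats, 13.8%, 11.7%, 24.7% and 26.6% in obese rats, and 24.8%, 90.2%, 12.7% and 32.1% in lean rats. The treated rats thus spanned nearly the full range among themselves, and the 4 obese rats were the most alike.

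Set beside their nearest neighbours within the same animals, principal cells had fewer UMIs than type A and type B intercalated cells and more than IC-A/B cells. As with the other cells of the kidney, the names rest on the same gene values, so these differences are descriptions with no test. Principal cells had 0.707 times the median UMIs of type A intercalated cells and 0.642 times those of type B, each lower in 10 of 11 animals. The exception was obese rat 4 in both, where principal cells had 3315, type A cells 2516 and type B cells 2337. Against DCT/CNT they had 0.808 times the UMIs and were lower in 9 of 11 animals. Against IC-A/B they had 2.98 times as many, in 11 of 11 animals.

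Gene numbers lay in the same directions, at 0.747 times type A, 0.730 times type B, 0.860 times DCT/CNT and 2.21 times IC-A/B cells. For the mitochondrial percent, principal cells averaged 10.2 percentage points above IC-A/B cells and were higher in 9 of 11 animals. They averaged 3.49 points below DCT/CNT cells and were lower in 9 of 11 animals. Type A (1.68 points, principal cells higher in 8 of 11 animals) and type B cells (-3.09 points, principal cells lower in 7 of 11 animals) lay on both sides of them.

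**Figure D5:**
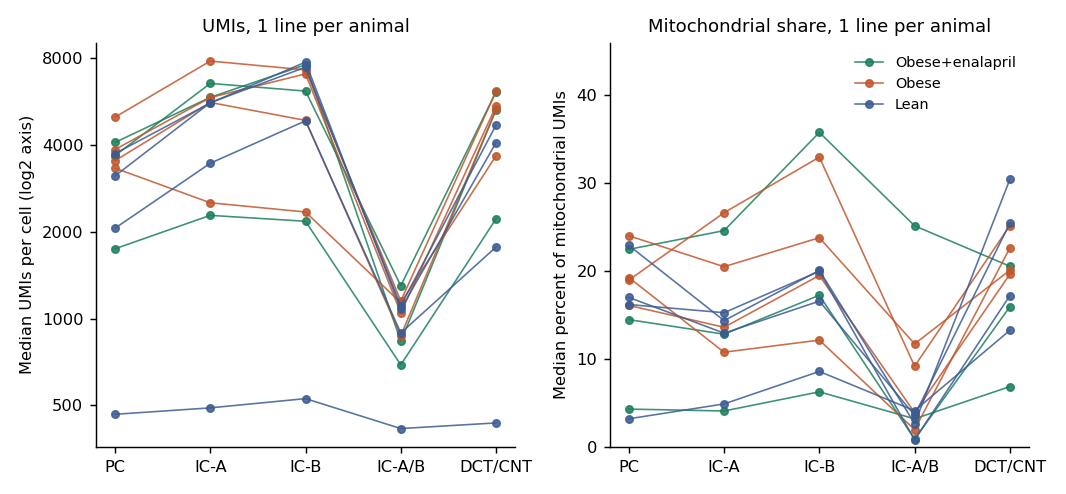
Median UMIs per cell on a log2 axis (left) and median mitochondrial percent (right) of principal cells and 4 neighbouring types, 1 line per animal in its group's colour. IC-A/B cells are lowest for UMIs in all 11 animals, principal cells lie between them and the type A and B cells in 10 of 11, and lean rat 2 lies below all other animals for UMIs.

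On the authors' 2-dimensional map of all cells, the principal cells formed a compact set that bordered mainly on the joint DCT/CNT type. Of the 20 nearest map neighbours of each principal cell, 88.8% were principal cells, against 1.10% of all cells. DCT/CNT cells made up 76.9% of the remaining neighbours, DCT cells 10.0%, IC-B cells 3.99%, urothelial cells 3.96% and IC-A cells 1.38%. The share of principal cells among the neighbours was 93.2%, 86.4% and 85.1% in enalapril-treated rats, 87.5%, 88.4%, 88.5% and 85.7% in obese rats, and 89.9%, 94.4%, 84.1% and 92.7% in lean rats, and the groups overlapped. DCT/CNT led the other neighbours in each group, at 81.7% in enalapril-treated, 74.3% in obese and 73.9% in lean rats. The map and the type names come from the same gene values, so this is a description of the naming and no independent check of it.

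A small set of principal cells lay among cells of another name. In 78 cells (6.19%) under 50% of the map neighbours were principal cells, and in 60 of these DCT/CNT was the leading other type. They were 3, 16 and 10 cells in enalapril-treated rats, 7, 5, 12 and 6 in obese rats, and 8, 1, 8 and 2 in lean rats. Pooled over animals, these cells had a median of 23.8% mitochondrial UMIs, against 14.6% in the other 1182 principal cells. That pooled gap mixes animals. Treated rat 1 and lean rat 2 held 3 and 1 of the 78 cells but 188 and 60 of the others, where their medians were 4.21% and 3.17%. Within animals the mitochondrial median of such cells was higher in 10 of 11, the exception being obese rat 1. It was higher in 7 of 11 with 10 neighbours and 9 of 11 with 30. Their median UMIs were lower in 6 of 11 animals, and in 7 of 11 with 10 neighbours, so no direction is given for UMIs.

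By the authors' phase calls, principal cells were more often in G1 than the other cells of the same animal. G1 was called in 52.9%, 51.4% and 58.6% of them in enalapril-treated rats, 52.8%, 66.2%, 57.2% and 46.9% in obese rats, and 54.7%, 72.1%, 53.2% and 51.8% in lean rats. The other cells stood at 45.2% to 53.0% in enalapril-treated rats, 34.4% to 41.7% in obese rats and 44.4% to 69.3% in lean rats. The difference averaged 10.0 percentage points and was positive in 10 of 11 animals, the exception being treated rat 1. Mean S scores lay from -0.0230 to -0.00689 and mean G2M scores from -0.0285 to -0.0149 over the animals. Calls of S or G2M depend on depth and on a score near 0, and no cycling is read from them.

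The percent of principal cells called S or G2M did not separate the groups. In limma, obese against lean rats differed by 2.14 ± 5.79 percentage points (SE, adjusted p = 0.756). The treated and obese difference was 1.52 ± 6.26 (adjusted p = 0.987) and the treated and lean difference 3.66 ± 6.26 (adjusted p = 0.844). Limma called 0 of 18 types (0%) in each of these contrasts, with 5, 0 and 2 types at an unadjusted p under 0.05. Without lean rat 2, where 72.1% of principal cells were called G1, the obese and lean difference was -2.59 and the treated and lean difference -1.07. The obese and lean difference was also below 0 without obese rat 4 (-0.834), and the treated and obese difference without obese rat 2 (-1.96).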

How the data were processed

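Cells were deposited by the authors as 1 table with 1 line per cell. The deposited numbers of UMIs and of genes in each cell are raw counts, per the file headers. Mitochondrial UMIs were deposited as a percent of the cell's UMIs, and the S and G2M values and map coordinates are a score and positions deposited by the authors. Seurat 4.3.0, Cell Ranger 7.0.1 and rn6 are listed, without roles, in the submitters' processing notes. The sources used here do not give cell filters, doublet handling or how types were named, and no doublet caller could be run without gene values. Cells were tied to animals through the sample code in the labels. The deepest and shallowest principal cells had 14273 and 278 UMIs.

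The animal was the replicate. Counts of cells per type were fitted with edgeR 4.0.16 (quasi-likelihood, robust, no abundance trend) over all 3 groups, leaving out types that averaged fewer than 10 cells, with the animal's total or the compartment's total as library size. Medians per type and animal (at least 20 cells) were compared with limma 3.58.1. A threshold of 0.05 was set on Benjamini-Hochberg adjusted p. The SE of an edgeR log2 fold change was taken as its size divided by the root of the F statistic. Ratios were compared by exact permutation. Exact sign-flip tests of principal cells against other types were run but are not given as results, since the names rest on the same gene values. Alternatives used DESeq2 1.42.0, logit shares in limma, other filters and libraries left out. R 4.3.3 ran the fits. Python 3.11.15 ran the rest, with scipy 1.17.1, numpy 2.4.6, matplotlib 3.10.9 and pandas 2.3.3. Fits were tested on simulated data. Principal cells were compared with IC-A, IC-B, IC-A/B and DCT/CNT by rule. The cell type, the lists and the tests were chosen with earlier results of these data known. The ratios per cell, the comparison with all other cells, the depth window and the map border were added after the values were seen, and the number of map neighbours was raised once after that. The labels do not say outright that samples of a group are separate animals, which was assumed. The p-values of group contrasts judge differences against the variation between these samples.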

Additional observations from a re-analysis of the deposited data

Results flagged for a closer look

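In lean rat 2, 3 values lay far from those of the other 3 lean rats by Dixon's test for groups of 4 (critical value 0.829). Of its principal cells 68.9% had under 5% mitochondrial UMIs, 3.28% had at least 1000 UMIs, and 72.1% were called G1. In all, 42 sets of 4 animals were examined over 21 measures, and chance flags about 1 in 20.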

How the results depend on the processing

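Of 248 alternatives other than leaving out 1 animal, 230 kept the direction and the side of the threshold, as did 576 of 605 fits without 1 animal. For the share of all cells, the obese and lean difference turned to 0.14 with non-immune cells as the total and ranged from -0.49 to 0.035 without 1 animal. The treated and lean share difference turned to -0.16 with the replicate number as a block and ranged from -0.035 to 0.27. For the share of the duct, obese against lean passed in DESeq2 (0.86) and limma (1.06) and ranged from 0.64 to 1.16 without 1 animal. Treated against lean was not called in the exact permutation test (1.55, adjusted p = 0.108), which these group sizes limit, or with the replicate block (1.26, adjusted p = 0.101), and ranged from 1.00 to 1.53. The relative UMIs of treated against lean rats turned to -0.16 among cells with at least 1000 UMIs, -0.10 under 20% mitochondrial UMIs and -0.059 without both shallow libraries, and ranged from -0.038 to 0.18. The mitochondrial difference of treated and lean rats turned to 0.773 under 20% mitochondrial UMIs and ranged from -5.44 to 3.65. For S or G2M calls, obese against lean turned to -1.83 with at least 1000 UMIs and -2.59 without both shallow libraries, and ranged from -2.59 to 5.62. Treated against obese turned to -0.185 under 20% mitochondrial UMIs and ranged from -1.96 to 4.49. Treated against lean turned to -1.77 without both shallow libraries and ranged from -1.07 to 5.81. Against DCT/CNT, genes ranged from -0.26 to -0.18 and mitochondrial percent from -4.23 to -2.83, with mitochondrial values of -2.38 with means and -2.86 without both shallow libraries. Against IC-B the mitochondrial difference was -4.02 with at least 1000 UMIs and ranged from -4.11 to -2.001. In treated against obese rats the ratio to DCT turned to -0.21 under 20% mitochondrial UMIs. Without 1 animal the ratios to IC-A (-0.038 to 0.20), IC-B (-0.21 to 0.82) and DCT/CNT (-0.24 to 0.017) changed sign there. The cause of these turns was not tested.

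Counts of types called varied too. Between obese and lean rats 12 of 20 types were called, 7 without lean rat 2, 6 with at least 1000 UMIs, 3 of 15 among non-immune cells and 0 by permutation; within compartments 4 of 17 were called, 9 without both shallow libraries, 8 in DESeq2 or limma, 7 in cells with at least 1000 UMIs, in cells under 20% mitochondrial UMIs or without lean rat 2, and 0 by permutation. Between treated and lean rats DESeq2 and the replicate block each called 5 of 20 types, against 3 in edgeR, and permutation called 0. The counts of 0 by permutation are limited by group size, since the smallest p of that test is 0.0286. Between treated and obese rats the block called 3 of 20, against 0, and within compartments DESeq2 called 4 of 17, against 1. Replicate numbers were not taken as pairs, since nothing in the labels pairs them and same-numbered animals deviated together over types in only 5 of 10 pairs (r over 0.1, range -0.472 to 0.513). As a hint from the data that they may share more than a number, 8 of 11 animals correlated best with their own. With that block the treated and lean calls within compartments came to 0, against 5 without it. The ratio to IC-B under 20% mitochondrial UMIs gave no value for treated rats, since treated rat 3 had 0 such cells. Above 1000 UMIs lean rat 2 kept 2 principal cells and was left out of the medians. It stayed in the fits of shares at that floor, except where a fit is said to leave it out. Shares of rare types are limited by 56 to 191 principal cells per animal.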

Other observations

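Within each animal, principal cells with fewer UMIs tended to have a higher mitochondrial percent. Spearman's rho across the principal cells of 1 animal was -0.246, -0.253 and -0.0701 in enalapril-treated rats, -0.297, -0.467, -0.0976 and -0.406 in obese rats, and -0.418, -0.255, -0.443 and -0.488 in lean rats. These are descriptions across cells, which are not independent replicates, and both values share the same UMI total. Principal cells under 10% mitochondrial UMIs had higher median UMIs than those at 20% or more in 11 of 11 animals. The gap was narrow in treated rat 3 (4022 against 3835, with 6 cells under 10%) and obese rat 3 (5558 against 4447), and wide in treated rat 2 (5313 against 2348) and lean rat 3 (5777 against 2081). In lean rat 2 the group at 20% or more held 2 cells.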
